A study of Mus musculus with 14 samples.

Results

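The caspase genes are the 7 genes among 13130 in the authors' deposited comparison whose symbol is Casp followed by a number, and 5 of them are described: Casp1, Casp2, Casp6, Casp8 and Casp9. They were chosen by symbol and no measured value decided which genes belong, but the family was selected with the fold changes and p-values of the same comparison known. The study sequenced mRNA from the nucleus accumbens, part of the ventral striatum and of the reward circuit, in C57BL/6 mice whose Tet1 alleles both carry loxP sites. In 7 mice an adeno-associated virus (AAV) delivered Cre, the recombinase that removes DNA between loxP sites, to the region. The other 7 mice had the same alleles and received AAV carrying green fluorescent protein (GFP). Tet1 loxp/loxp is therefore shared by both groups, and the virus is the only difference that the labels give. Tissue was collected 4 weeks later, with 1 library per mouse. The sources used here do not give the promoter that drives Cre, the share of cells that received virus, or the age and sex of the mice. The deposited values are 1 row per gene for AAV-Cre over AAV-GFP, so no level, spread or depth per library can be given. Because the tissue was sequenced in bulk, more cells of a type cannot be told apart from more RNA per cell, and fewer cells cannot be told apart from less RNA per cell.

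Caspases are cysteine proteases that cut proteins after aspartate. They are made as inactive zymogens and are switched on by being brought together on a platform or by being cut. Inflammatory caspases act in the inflammasome, where they process interleukins and open pores in the membrane. Initiator caspases start apoptosis at death receptors or at the mitochondrion, and executioner caspases then cut the cell's proteins. In the brain the executioners also act in the pruning of neurites and synapses, and inflammasomes are best known from myeloid cells such as microglia.

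Tet1, the targeted gene, had a log2 value of -0.13 (standard error 0.11) for AAV-Cre over AAV-GFP in the authors' deposited table (adjusted p = 0.921). Which exons the loxP sites flank is not stated in the labels, so this transcript total is no measure of how much of the gene was deleted. All 10 of 10 striatal projection neuron markers, which mark the main neurons of the region, were in the table. Their mean levels lay between 135 CPM (Drd2) and 1280 CPM (Penk) in the authors' deposited table, where CPM is the read count scaled to the size of the library.

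Positions are from GENCODE M21 on GRCm38, the build that the submitters' processing notes name. Casp4, Casp12 and Casp14 have no row in the authors' deposited comparison, so they were not analysed here. Casp1 (ENSMUSG00000025888.5) lies on chromosome 9 from 5298517 to 5307265 on the plus strand, and Casp4 begins 1562 bases after its end. Casp8 (ENSMUSG00000026029.10) lies on chromosome 1 from 58795374 to 58847503, with its inhibitor gene Cflar 36489 bases upstream on the same strand. Casp9 (ENSMUSG00000028914.9, chromosome 4 from 141793612 to 141815976) has exons that overlap those of the opposite-strand genes Cela2a and Ctrc. Whether strand was used in counting is not given in the sources used here, so reads from the overlap cannot be told apart. Casp2 (chromosome 6 from 42264985 to 42282508) and Casp6 (chromosome 3 from 129901425 to 129914103) overlap no exon of another gene.

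Caspase transcripts share little sequence with other genes at a length of 50 bases. The read length is not among the labels. Of the 50-base words in Casp1 transcripts, 0 of 1448 occurred in a transcript of another gene on either strand, Casp4 and Casp12 included. For Casp8, 128 of 2927 words (4.37%) also occurred in the pseudogene Gm20257. For Casp9, 46 of 5378 words (0.855%) were shared with Cela2a and Ctrc, for Casp6 1 of 5491 with Slc44a2, and for Casp2 none.

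Promoter windows from RefSeq (GRCm38.p6), 250 bases before to 50 after the gene start, were at hand for all 5 genes. Tet1 encodes an enzyme that oxidises 5-methylcytosine, which in mammals sits mostly at CpG, so CpG dinucleotides are in capitals below. Shown are the windows of Casp1 and Casp8, which have the 2 highest fold changes of the 5, and of Casp9, the only one of the 5 with a fold change under 0. All 3 are on the plus strand and each gene starts directly after the first 250 bases.
Casp1, chr9:5298267-5298566: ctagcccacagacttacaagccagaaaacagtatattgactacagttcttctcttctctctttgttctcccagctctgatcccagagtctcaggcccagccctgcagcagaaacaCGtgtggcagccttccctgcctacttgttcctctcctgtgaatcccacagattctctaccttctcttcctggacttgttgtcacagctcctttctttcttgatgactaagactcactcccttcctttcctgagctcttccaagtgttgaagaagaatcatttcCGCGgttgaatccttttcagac
Casp8, chr1:58802252-58802551: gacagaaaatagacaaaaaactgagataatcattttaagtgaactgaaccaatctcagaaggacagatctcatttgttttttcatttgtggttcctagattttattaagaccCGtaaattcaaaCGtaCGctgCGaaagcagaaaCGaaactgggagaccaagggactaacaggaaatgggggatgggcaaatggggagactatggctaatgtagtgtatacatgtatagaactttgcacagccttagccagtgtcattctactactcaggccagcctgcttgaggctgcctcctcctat
Casp9, chr4:141793362-141793661: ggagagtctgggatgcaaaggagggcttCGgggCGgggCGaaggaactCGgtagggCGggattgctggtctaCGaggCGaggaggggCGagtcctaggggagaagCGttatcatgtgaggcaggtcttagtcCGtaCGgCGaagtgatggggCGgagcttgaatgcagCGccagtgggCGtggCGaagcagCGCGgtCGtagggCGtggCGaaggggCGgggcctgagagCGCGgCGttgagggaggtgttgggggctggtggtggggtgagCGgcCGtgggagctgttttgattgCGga

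The windows differ in how many CpG they hold. That of Casp1 has 3 CpG, and 4.13% of the 12200 windows of genes in the table have fewer. That of Casp8 has 5, and 9.17% have fewer. The windows of Casp6, Casp2 and Casp9 have 16, 26 and 28 CpG, against a median of 20 in those 12200 windows (quartiles 12 and 29). The Casp8 window starts from a RefSeq start that lies 7128 bases inside the GENCODE gene, so it describes 1 of its starts. This feature was chosen after the fold changes were known. The limit of 5 CpG used next is the count of the Casp8 window, so Casp1 and Casp8 fall within it by choice. Where a gene had several windows the lowest count was used, and genes without a window were left out. Over all 1223 genes of the table with at most 5 CpG, 7.77% had an unadjusted p under 0.05 on the higher side, against 4.05% of the 8223 genes with more. Their median log2 fold changes were 0.010 and 0.020 in the authors' deposited table, and no test was made.

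**Figure D1:**
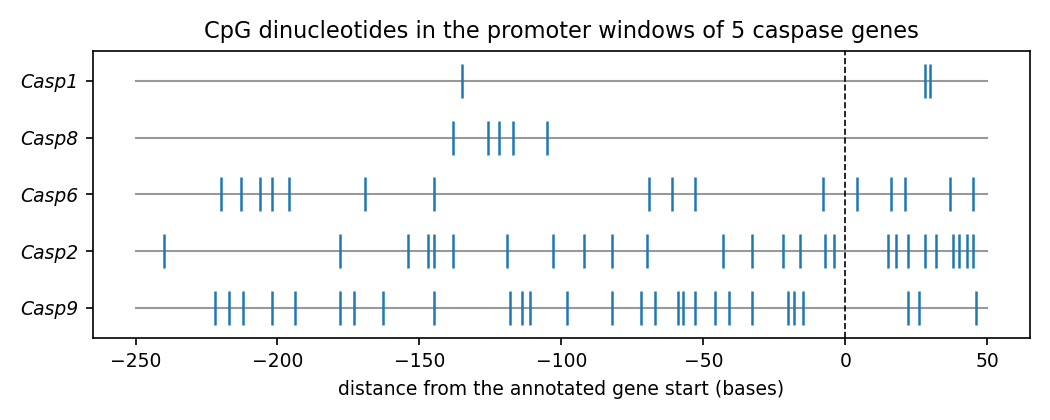
Position of each CpG dinucleotide (vertical marks) in the promoter windows of 5 caspase genes, by distance from the annotated gene start in bases; the dashed line is the start. Casp1 and Casp8 have 3 and 5 CpG, and Casp6, Casp2 and Casp9 have 16, 26 and 28.

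None of the 5 windows held any of 3 motifs searched on both strands. The first was TTCNNNGAA, the gamma-interferon activation site GAS, found in 6.61% of the 12200 windows. The second was only like an interferon-stimulated response element, spelled GAAA, any 2 bases and GAAA again (2.77%). Other spacings of that element were not searched. The third was a kappaB-like element, spelled GGGA, any 4 bases and CC (26.7%). N stands for any base, and matches of different motifs may share bases. A missing match says only that these letters are not in these windows.

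The 5 caspases stood below the middle of the table in level. Per kilobase of exon, 1.01% (Casp6) to 39.6% (Casp9) of genes stood below them in mean level. From the authors' deposited table, Casp9 stood highest at 4.77 CPM per kilobase, followed by Casp2 at 2.68, Casp1 at 1.77, Casp8 at 1.46 and Casp6 at 0.692. The exon length joins the exons of all annotated transcripts, which lowers the value of genes with many transcripts. Without values per library, it cannot be said which neighbours in that order differ beyond their spread. Casp1 and Casp8 had 13.3% and 9.30% of genes below them per kilobase.

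By the authors' limma-style test 0 of the 5 caspases passed an adjusted p of 0.05, as did 0% of all 13130 genes. An unadjusted p under 0.05 was listed for 2 of the 5, Casp1 and Casp8, against 5.15% of all genes and 4.84% of the 12697 genes with a mean level of at least 1 CPM. Both were on the higher side, which holds 4.62% of all genes, and 0 of the 5 were on the lower side, which holds 0.533%. The fold change was above 0 for 4 of the 5, against 59.1% of all genes. The median log2 fold change of the 5 was 0.25, beside 0.02 over all genes. The family and its members were chosen with results of these data known, so these counts are descriptions. By mean level, 6.66% of genes stood below Casp1 and 10.3% below Casp8. The rule that removed weak genes is unknown. It may have kept a weak caspase that was higher in 1 group, so the counts may be shifted upward.

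The inflammatory caspase Casp1 had the highest fold change of the 5. Its product cleaves the precursors of interleukin-1 beta and interleukin-18, and gasdermin D. In the authors' deposited table its log2 fold change was 1.001 ± 0.23 (standard error), a level 2.002 times that in AAV-GFP, with 95% limits of 1.43 to 2.795 times. By p it ranked 4 of 13130 genes (unadjusted p = 0.000476), and the adjusted p was 0.695, equal to the smallest in the authors' deposited table. By fold change it ranked 111, so 99.2% of genes had a lower one. Its mean level was 2.65 CPM. The standard error was 1.47 times the median of the 260 genes within 0.25 log2 units of its level, where that median was 0.154.

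Casp8 came next. It is the initiator at death receptors, and its activity also holds back necroptosis. The authors' deposited table gives it a log2 value of 0.41 ± 0.16 (standard error), or 1.33 times the AAV-GFP level with 95% limits of 1.05 to 1.68 times. Its unadjusted p was 0.0230, rank 310 of all genes, and its adjusted p was 0.919 in the authors' deposited table. Its limits overlapped those of Casp1 (a log2 value of 0.06 to 0.75 for Casp8 and 0.52 to 1.48 for Casp1). Whether the 2 genes differ in fold change could not be tested, since the libraries' values are needed for that.

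The other initiators lay close to 0. Casp9, which Apaf1 activates after cytochrome c leaves the mitochondrion, was at -0.03 ± 0.06 (log2 fold change and standard error) in the authors' deposited table. Its 95% limits of -10.1% to 6.61% were the narrowest of the 5, at a mean level of 24.8 CPM. Casp2, the initiator of the PIDDosome that responds to DNA damage and extra centrosomes, had 0.04 ± 0.09 with 95% limits of -9.54% to 16.9% in the authors' deposited table. Adjusted p was 0.964 for Casp9 and 0.969 for Casp2 there.

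Casp6, an executioner that cleaves lamin A, was at 0.25 ± 0.12 (log2 fold change and standard error) in the authors' deposited table, 19.1% above AAV-GFP. Its 95% limits of -0.19% to 42.0% just included 0, and it is the member just outside the unadjusted threshold (p = 0.0522, adjusted p = 0.919 in the authors' deposited table), with Casp8 the member just inside.

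**Figure D2:**
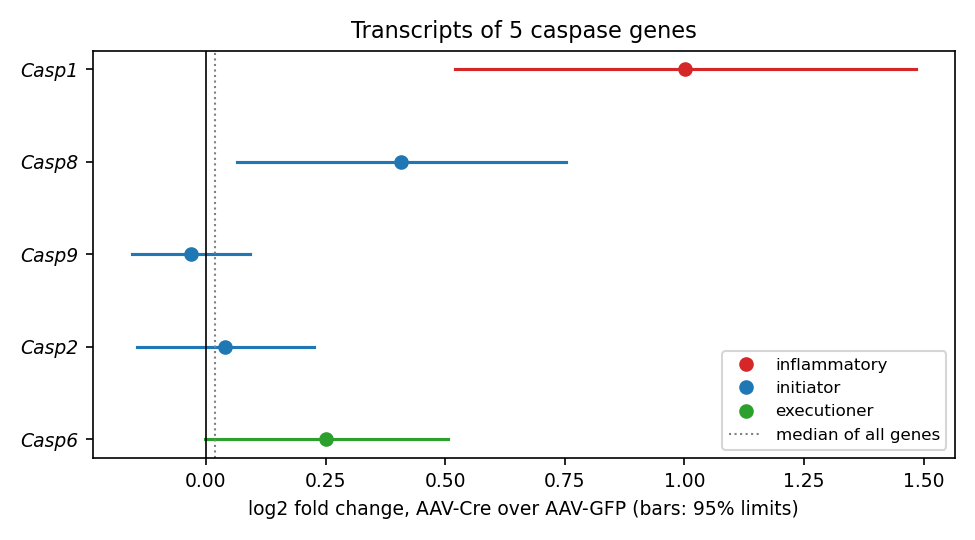
Log2 fold change of AAV-Cre over AAV-GFP for 5 caspase genes (points) with 95% limits (bars), by role; the dotted line is the median of all genes. The limits of Casp1 (0.52 to 1.48) and Casp8 (0.06 to 0.75) lie above 0, and those of the other 3 include it.

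**Figure D3:**
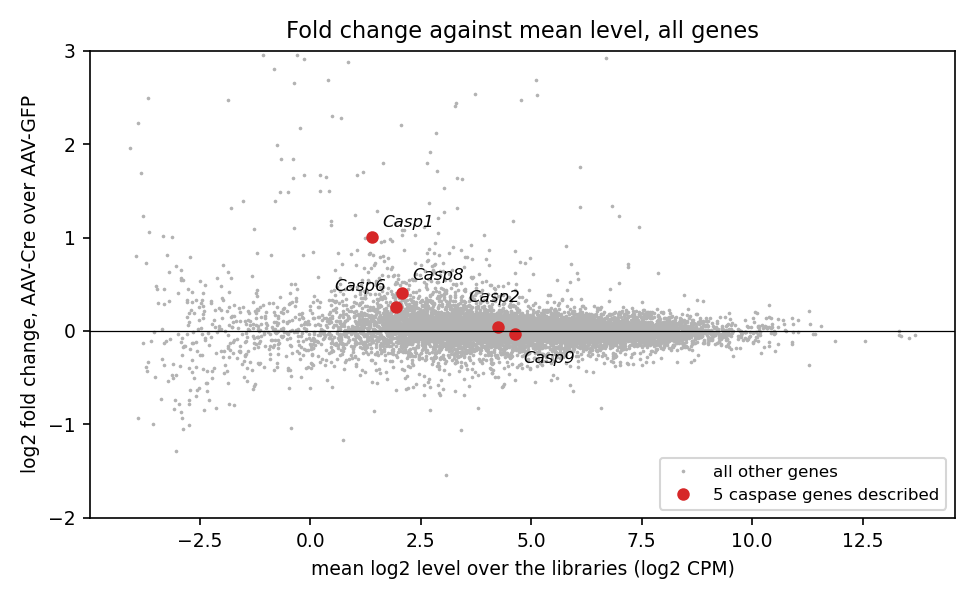
Log2 fold change of AAV-Cre over AAV-GFP against the mean log2 level (log2 CPM) for all genes (grey) and 5 caspases (red); 34 genes outside -2 to 3 are not drawn. Of all genes, 99.2% lie below Casp1 in fold change and 97.5% below Casp8, while Casp9 and Casp2 lie near 0.

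The caspases were then set beside 10 groups of genes that work with them. These hold 59 measured genes of 98 listed, of which 45 had a fold change above 0, 7 an unadjusted p under 0.05 on the higher side, 0 on the lower side, and 0 an adjusted p under 0.05. Over all genes, 59.1% were above 0, 4.62% had an unadjusted p under 0.05 on the higher side and 0.533% on the lower side, and the median was 0.02. The 7 are 3 guanylate-binding protein genes, Gsdmd, Tnfrsf1a, Bax and Mcl1. An unknown filter on weak genes can keep such a gene where it was higher in 1 group, so counts over the measured genes may be shifted upward.

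Around Casp1, 4 of the 8 measured genes of the pyroptosis and interleukin-1 family list had an unadjusted p under 0.05. All 4 were on the higher side, which holds 4.62% of all genes. The median log2 fold change of the 8 was 0.34, beside 0.02 over all genes. Of the 4, 3 are guanylate-binding protein genes, which the list also holds, and Gsdmd is the only other. The list was chosen with earlier results of these data known, so its count and median are descriptions. Gsdmd, which encodes the pore-forming target of Casp1, had 0.52 ± 0.20 (standard error) in the authors' deposited table (adjusted p = 0.919). Gbp5, which encodes a guanylate-binding protein known to promote NLRP3 inflammasome assembly, had 0.94 ± 0.22 there, and Gbp2 and Gbp3 of the same family, which acts against intracellular microbes, had 1.53 ± 0.39 and 0.84 ± 0.22 in the authors' deposited table (adjusted p = 0.695 for each of the 3). The cytokine gene Il18, a Casp1 substrate, had 0.09 ± 0.08 in the authors' deposited table, and its decoy Il18bp 0.16 ± 0.13. Of the inflammasome sensors and adaptor, 3 of 14 were measured. Pycard, the adaptor ASC that joins sensors to Casp1, had 0.47 ± 0.23 in the authors' deposited table (unadjusted p = 0.0563). The DNA sensor gene Aim2 had 0.08 ± 0.29 there and Nek7, a partner of NLRP3, had 0.05 ± 0.07 in the authors' deposited table.

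Around Casp8, 8 of 10 measured death receptor and platform genes had a fold change above 0 (59.1% of all genes), with a median log2 value of 0.09. An unadjusted p under 0.05 on the higher side was listed for 1, against 4.62% of all genes. That was Tnfrsf1a, the main TNF receptor, at 0.37 ± 0.14 (standard error) in the authors' deposited table (adjusted p = 0.919). The death receptor gene Fas had 0.31 ± 0.17, and the deubiquitinase genes Cyld and Otulin, which trim ubiquitin chains at the TNF receptor, had 0.17 ± 0.09 and 0.12 ± 0.07 in the authors' deposited table. Cflar, the neighbour of Casp8 on chromosome 1 and the inhibitor of its activation, had 0.15 ± 0.09 in the authors' deposited table (unadjusted p = 0.0998). Trak2, the next measured gene on the other side, had -0.005 ± 0.11 there. Of the necroptosis genes, 1 of 4 was measured, Ticam1 (the adaptor TRIF), with 0.01 ± 0.08 in the authors' deposited table.

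Around Casp9 the apoptosome and mitochondrial release genes lay close to 0, while most measured BCL-2 family genes had small values above it. The 6 apoptosome and mitochondrial release genes were all measured. Their median was a log2 value of -0.0001, and 0 had an unadjusted p under 0.05. Apaf1, the scaffold of Casp9, had 0.04 ± 0.07 (standard error), Cycs (cytochrome c) -0.04 ± 0.08, Endog -0.08 ± 0.09 and Diablo 0.04 ± 0.11 in the authors' deposited table. Among 7 measured pro-death BCL-2 family genes, 6 were above 0 (median 0.14), against 59.1% of all genes. The pore-former Bax had 0.14 ± 0.06 in the authors' deposited table (unadjusted p = 0.0272), Bak1 0.15 ± 0.08, Bbc3, which encodes the p53 target PUMA, 0.22 ± 0.13, and Bad 0.10 ± 0.07. Of 4 measured pro-survival members, Mcl1 had 0.10 ± 0.04 (unadjusted p = 0.0391), Bcl2l1 0.07 ± 0.04, Bcl2l2 -0.10 ± 0.06 and Bcl2 0.15 ± 0.10 in the authors' deposited table.

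The brakes and the substrates of the executioners showed no value past the unadjusted threshold, which 5.15% of all genes passed. With so few genes, that is no result about them. Of 6 listed inhibitor of apoptosis genes, 3 were measured. Xiap, a direct inhibitor of caspases, Casp9 among them, had -0.001 ± 0.05 (standard error), Birc2 0.07 ± 0.05 and Birc6 -0.07 ± 0.10 in the authors' deposited table. All 12 substrate and execution genes were measured, 7 of them above 0, with a median log2 fold change of 0.02, near the 59.1% and 0.02 of all genes. Gsn (gelsolin) had 0.18 ± 0.11, Sptan1 (spectrin) -0.10 ± 0.08, Panx1 0.06 ± 0.06 and Parp1 -0.06 ± 0.07 in the authors' deposited table. Of the Casp2 platform and CARD adaptor genes, 5 of 8 were measured and all 5 were above 0 (median 0.08), against 59.1% of all genes. Bcl10 had 0.13 ± 0.06 and Cradd (RAIDD), the adaptor that recruits Casp2, 0.10 ± 0.09 in the authors' deposited table. Card9 had 0.08 ± 0.15 and Malt1, which encodes a caspase-like protease, 0.04 ± 0.09 in the authors' deposited table.

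**Figure D4:**
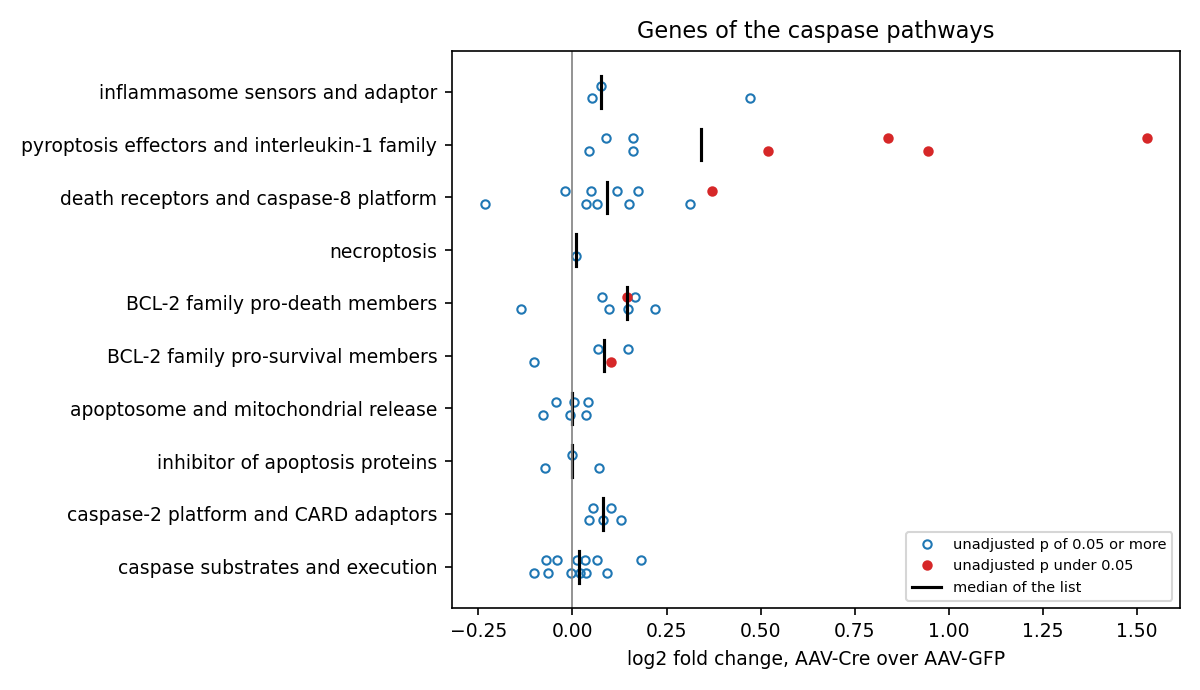
Log2 fold change of AAV-Cre over AAV-GFP for each measured gene of 10 lists around the caspases; black bars are list medians and filled points have an unadjusted p under 0.05. The 4 filled points of the pyroptosis list, Gsdmd and guanylate-binding protein genes, reach from 0.52 to 1.53. The apoptosome list stays within -0.08 to 0.04.

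Markers of cell types were set beside the caspases, of which 4 of the 5 had a fold change above 0. Fold changes above 0 were found for 6 of 6 endothelial, 6 of 6 oligodendrocyte, 8 of 10 striatal projection neuron and 6 of 8 astrocyte markers. Over all genes the share was 59.1%. With so few genes, these counts of signs are no result about those cells. All 12 microglia markers had a log2 fold change above 0, from 0.02 to 0.72 with a median of 0.43, against 59.1% of all genes above 0. An unadjusted p under 0.05 was listed for 7 of them, against 4.62% of all genes on the higher side. Ctss and C1qa had 0.72 ± 0.25 each (standard error) in the authors' deposited table. Of 19 lymphocyte and other leukocyte markers only 5 were measured, and a weak one may have entered the table through the group where it was higher, so no count is drawn from them. Trac, of the T cell receptor, had 1.39 ± 0.40, the immunoglobulin gene Igkc 2.92 ± 1.03 and Cd4 -0.05 ± 0.17 in the authors' deposited table. The median of the 5 was 1.39, which is the value of Trac, at a mean level of 0.35 CPM. That of the 3 with a mean level of at least 1 CPM was 0.51. Because of how weak markers may have entered, neither median is read as a result about leukocytes. Endothelial markers had a median of 0.19 over 6 (2 with an unadjusted p under 0.05), with Cldn5 at 0.29 ± 0.12 and Cdh5 at 0.27 ± 0.12 in the authors' deposited table. Astrocyte markers had a median of 0.09 over 8, of which 1 had an unadjusted p under 0.05, with Slc1a3 at 0.20 ± 0.08 and Gfap at 0.69 ± 0.34 in the authors' deposited table. Oligodendrocyte markers had a median of 0.05 over 6, with Cnp at 0.09 ± 0.13 in the authors' deposited table, and striatal projection neuron markers a median of 0.09 over 10, with Adora2a at 0.14 ± 0.10 and Penk at 0.14 ± 0.11 in the authors' deposited table. In neither list did a member have an unadjusted p under 0.05. Summed levels per group cannot be given without values per library, and the part of these cells in the caspase values was not tested.

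**Figure D5:**
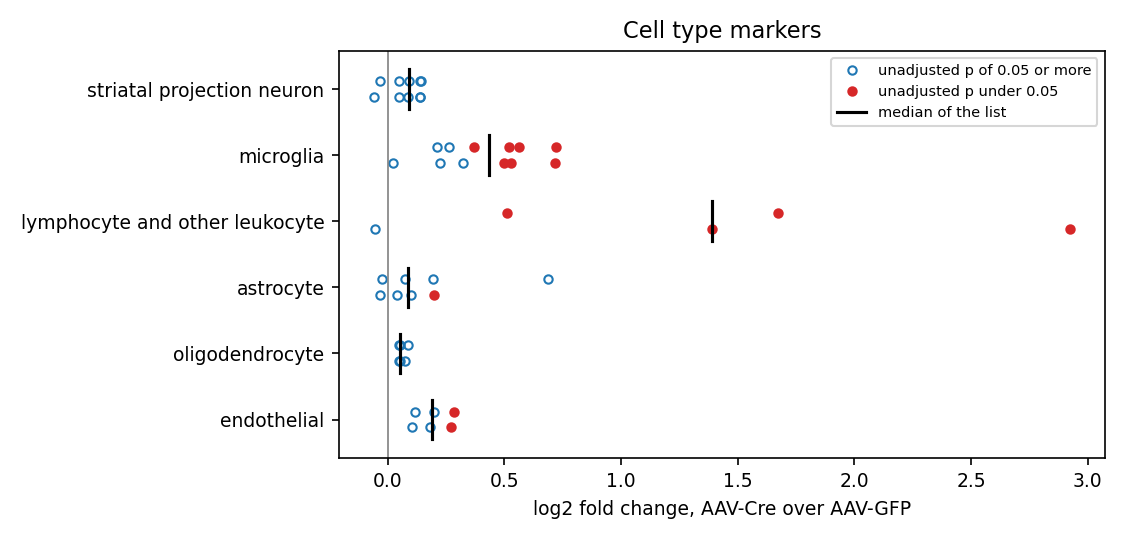
Log2 fold change of AAV-Cre over AAV-GFP for each measured cell type marker; black bars are list medians and filled points have an unadjusted p under 0.05. Microglia markers have a median of 0.43, and striatal projection neuron and oligodendrocyte markers have medians of 0.09 and 0.05. The bar of the 5 leukocyte markers, at 1.39, is the value of Trac, which has a mean level of 0.35 CPM. The median of the 3 with at least 1 CPM is 0.51.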

How the data were processed

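Polyadenylated RNA of 14 nucleus accumbens samples, 7 AAV-Cre and 7 AAV-GFP, was sequenced after library preparation with the TruSeq mRNA kit of Illumina, per the labels' protocols. The submitters' processing notes name TopHat2 2.0.9, Bowtie2 2.1.0 and the build GRCm38. Not given in the sources used here are the read counter, the normalization, the rule that removed weak genes and the model. The authors' table has the column names that limma writes. It holds, per the file headers, log2 values (the fold change and the mean level of a gene), a score (moderated t, and the unused log-odds B) and a p-value before and after adjustment. The adjusted values equal the Benjamini-Hochberg adjustment over all 13130 genes. The linear mean levels sum to 991364, so they are read here as CPM. The direction, AAV-Cre over AAV-GFP, is taken from the table's name. Depth per library is unknown.

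Standard errors are the fold change divided by t, and 95% limits use the 15.1 degrees of freedom at which t gives the deposited p. That derivation was tested on simulated statistics. The planned fit on library values could not be run, so the authors' values are described. The protein comparison was not run, as no protein sequences were used here. The caspases, the pathway lists and the marker lists were chosen with earlier results of these data known. Named genes are 5 of the 7 caspases (2, and 1 marker that the rule names, are not reported here), up to 4 members of smallest p per pathway list, up to 2 per marker list, and Tet1. Named beyond that rule, after their values were seen, were Il18, Il18bp, Cflar, Trak2, Cd4 and Drd2. Lists were matched by the table's symbol or, failing that, by stable gene ID. Alternatives were an adjusted threshold of 0.1, an unadjusted threshold of 0.01, a mean level of at least 1 CPM, fold changes minus the median of all genes, and the mean over members. Software was matplotlib 3.10.9, scipy 1.17.1, pandas 2.3.3, numpy 2.4.6 and Python 3.11.15.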

Additional observations from a re-analysis of the deposited data

How the results depend on the processing

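At an adjusted threshold of 0.1, and among genes with a mean level of at least 1 CPM adjusted again, 0 caspases passed, as in the table as deposited. The 2 caspases with an unadjusted p under 0.05 became 1 at an unadjusted threshold of 0.01, Casp1, against 1.05% of all genes. All 5 described caspases had at least 1 CPM, so that limit, for the unadjusted count chosen after seeing the data, left their count and median as they were. The median log2 fold change of 0.25 was 0.23 with the median of all genes subtracted, while the mean over the 5, 0.33, includes the Casp1 value. Subtracting it left each caspase on its side of 0 and of the unadjusted threshold. For the 10 pathway lists, the limit of 1 CPM left all 10 medians as they were, since every measured list gene was above it. Subtracting the median of all genes (0.02) moved each list by the same amount, less than the smallest median standard error of a list (0.05). These 20 alternative medians could therefore not leave the list's median standard error and are no check of the lists. By that subtraction 2 crossed 0, necroptosis (-0.008) and caspase substrates (-0.002). No paired analysis was possible because the deposited table has no value per library and the labels give mouse numbers that do not pair the groups. For the same reason no mouse could be left out and no outlying mouse could be looked for.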
